A study of Mus musculus with 8 samples.

Results

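The Irak2 locus is the Irak2 gene with 50 kb on each side, examined here for open chromatin in alveolar macrophages (AMs), the resident macrophages of the airspaces. Irak2 (ENSMUSG00000060477.14) lies on the plus strand of mouse chromosome 6, from 113638467 to 113695026 in mm10, with 13 exons in its first listed transcript. Peaks of the 8 libraries that overlapped chr6:113588467-113745026 were joined into one region wherever they had a base in common, which gave 31 of the 82424 merged regions in the series. They were numbered 1 to 31 along the chromosome. The locus was selected on measured values: of the 596 regions with a peak in all 4 WT libraries and in no KO library (WT-only regions), the one with the highest mean strength lies in an Irak2 intron. That peak pattern and the tags behind it are therefore described without a test.

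ATAC-seq uses a transposase that cuts accessible DNA and leaves sequencing adapters at the cut. AMs came from the lungs of adult mice, and both groups carried floxed alleles of Rxra and Rxrb, the genes of 2 retinoid X receptors (RXRs). The 4 KO libraries (replicates 1_2, 1_3, 2 and 3) had the genotype CD11cCre+ Rxrabfl/fl, and the 4 WT libraries (replicates 1_2, 1_3, 3 and 4) had the same floxed alleles without Cre. Cre is driven by the CD11c promoter, so the deletion is directed to AMs but not to them alone. The labels name the libraries but not the animals, so the tests below measure the spread between these libraries, part of which may be technical.

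IRAK2 belongs to the interleukin-1 receptor-associated kinases. After interleukin-1 or Toll-like receptors bind their ligands, the adaptor MYD88 gathers IRAK4 with IRAK1 or IRAK2, and the complex engages the ubiquitin ligase TRAF6, which activates NF-kB and MAP kinases. IRAK2 is known for sustaining the later phase of inflammatory gene expression in macrophages, whereas IRAK3 restrains the pathway. An accessible intron can hold an enhancer, but accessibility alone does not show which gene an element acts on.

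The lists held 60363 to 65009 peaks in the KO libraries and 61240 to 72484 in the WT libraries, and the background, which follows depth, was 1.12 to 1.86 tags per 200 bp in KO and 1.42 to 2.26 in WT. WT replicate 4 stood furthest from its group, and the main values at the element are also given without it. A tag is 1 read end, and summit tags are the read ends within the 200 bp around a peak's highest point. Promoter peaks were present in all 8 libraries at 11 of 14 AM marker genes, Siglecf, Itgax, Marco and Pparg among them, and in no library at Chil3 and Krt79. Of 21 markers of other cell types, 12 had no promoter peak in any library, including all 6 for T and B cells, and 7 had one in all 8, S100a8, Ly6c2, Cx3cr1, Epcam, Cdh1, Pecam1 and Pdgfra. The deleted gene Rxra had 12 regions in all 8 libraries and 1 WT-only region, in an intron, with 38 to 46 summit tags. Rxrb had 2 regions, 1 of them in all 8 libraries and 0 genotype-only.

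The intron 2 element (region 12) is printed first because the locus turns on it. Region 11 is its nearest neighbour, open in all libraries, the Irak2 promoter is the start site of the gene, and region 22 is the only region of the gene body that passed the test of KO against WT. All are plus strand, 5′ to 3′. The promoter is the RefSeq window from 250 bases before to 50 after the start site (GRCm38.p6, chr6:113638217-113638516), and the others are 150 or 100 bases on each side of the summit in mm10 (chr6:113656928-113657227, chr6:113654248-113654447 and chr6:113680108-113680307). Capitals mark matches to the motif letters searched within 100 bp of the summit, on either strand: STAT (TTCNNNGAA) in the element, the PU.1 core (GGAAGT) and CEBP (TTGCNNAA) in region 11, the PU.1 core in the promoter, and in region 22 2 overlapping SMAD half-sites (CAGACA) and 2 AGGTCA half-sites spaced by 1 base (DR1) with 2 mismatches.
Intron 2 element (region 12): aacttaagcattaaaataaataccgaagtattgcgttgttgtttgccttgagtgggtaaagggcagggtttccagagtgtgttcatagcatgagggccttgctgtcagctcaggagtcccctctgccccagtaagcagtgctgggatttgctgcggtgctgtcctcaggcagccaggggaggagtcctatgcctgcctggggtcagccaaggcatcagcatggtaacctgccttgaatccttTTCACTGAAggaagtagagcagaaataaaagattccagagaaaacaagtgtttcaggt
Intron 2 neighbour (region 11): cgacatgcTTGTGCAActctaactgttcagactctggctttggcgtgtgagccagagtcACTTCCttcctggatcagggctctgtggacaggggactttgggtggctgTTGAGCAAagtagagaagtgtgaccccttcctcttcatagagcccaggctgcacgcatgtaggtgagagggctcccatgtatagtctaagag
Irak2 promoter (region 6): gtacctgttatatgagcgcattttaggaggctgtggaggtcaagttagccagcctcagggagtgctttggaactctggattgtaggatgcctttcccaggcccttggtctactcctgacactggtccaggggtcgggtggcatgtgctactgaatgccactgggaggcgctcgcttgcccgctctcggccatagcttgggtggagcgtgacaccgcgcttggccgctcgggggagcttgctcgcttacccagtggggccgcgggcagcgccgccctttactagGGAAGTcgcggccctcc
Intron 9 region (region 22): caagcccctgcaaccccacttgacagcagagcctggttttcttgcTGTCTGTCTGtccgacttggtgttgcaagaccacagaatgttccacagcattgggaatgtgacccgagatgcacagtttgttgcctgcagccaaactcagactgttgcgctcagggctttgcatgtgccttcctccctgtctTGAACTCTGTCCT

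Of 19 sets of motif letters, 1 had a match within 100 bp of the element's summit. It was the STAT letters, TTCACTGAA, which began 92 bases after the summit, and 5.98% of the 72711 regions in at least 2 libraries (consensus regions) held such a match. A PU.1 core, GGAAGT, began at the next base, 101 bases after the summit and so just outside that window. The summit used was that of WT replicate 4, at 113657078, the peak with the highest −log10 p. The STAT match, 113657170 to 113657178, ended at the edge of its window. The summits of WT replicates 1_2, 1_3 and 3 were at 113657059, 113657071 and 113657054. The whole STAT match does not lie within 100 bp of any of these, and no other letters searched match there. In windows of 300 bases around the summit, 43.52% of consensus regions held the PU.1 core and 9.29% the STAT letters. Neither the half-site AGGTCA nor a direct repeat of it with 1 to 5 bases between the copies and at most 2 mismatches (DR1 to DR5) was matched in those 300 bases. No match says only that these letters are not in this stretch.

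Of the 31 regions of the locus, 14 held the PU.1 core, against 38.69% of consensus regions, and 5 held the AGGTCA half-site, against 15.11%. DR1 was matched in regions 22 and 24, against 4.14%, and DR2 in regions 13 and 28, against 2.66%. The element was 57.2% G and C within 100 bp of its summit, between 44.8% and 71.6% for the 30 consensus regions of the locus.

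The promoter and most of the introns were open in both genotypes. Of the 31 regions, 30 were consensus regions and 20 had a peak in all 8 libraries, a like share to that of the series, where 47499 of 72711 consensus regions did. Of the 20, 14 had summits in the Irak2 gene body and 6 in the flanks. The summits of 21 regions lay in the gene body, 20 in introns and 1, the promoter, in exon 1. The element was the only WT-only region among the 30 consensus regions of the locus, and there was no KO-only region (a peak in all 4 KO libraries and no WT library), where 0.820% of all consensus regions were WT-only and 0.285% KO-only.

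**Figure D1:**
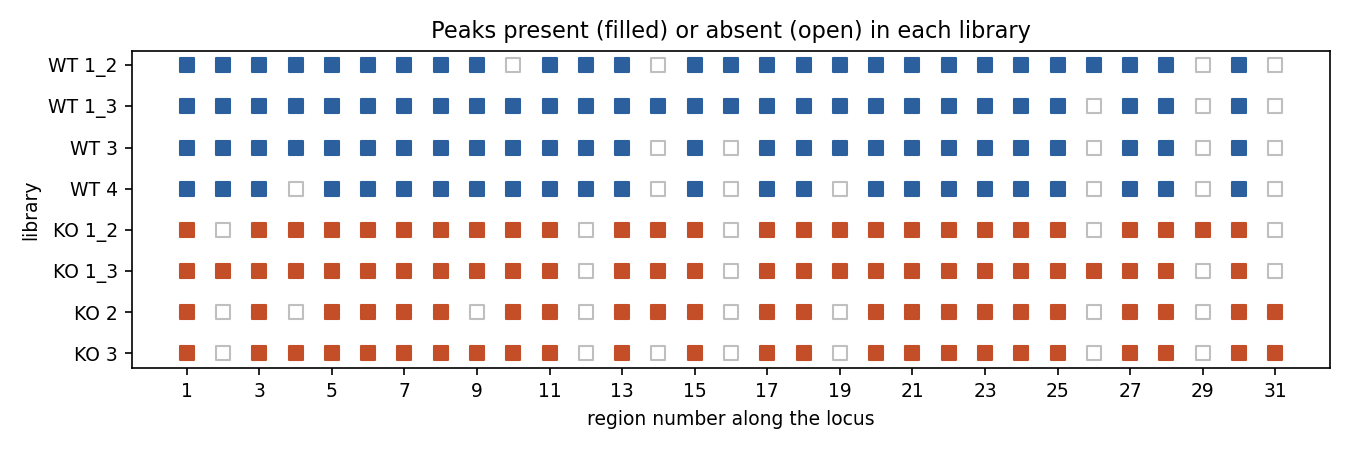
Each column is one of the 31 regions in order along the locus and each row a library, with filled squares for a peak and open squares for none. Region 12 is the only column filled in all 4 WT rows and open in all 4 KO rows.

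The element spanned chr6:113656877-113657237, 361 bp, in intron 2 between exon 2, which ends at 113647821, and exon 3, which begins at 113665703. WT replicate 1_2 had 117 summit tags, replicate 1_3 had 150, replicate 3 had 146 and replicate 4 had 197, and the summits lay within 24 bp of each other. In each WT list the element was above the middle by −log10 p, at percentiles 65.8, 69.0, 72.7 and 85.5. By the mean of these, 73.2, it ranked 1 of 596 WT-only regions, whose median was 19.7 and whose next highest was 71.1. Replicate 4 was the highest WT library by tags and by percentile. Without it the element's mean percentile was 69.1 and its rank 3 of 596, with 71.4 for the region at the top, and without each of the other 3 WT libraries in turn its rank was 1.

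No KO library had a peak between 2.34 kb before the element and 3.22 to 3.24 kb after it. Neighbouring openness raises the peak caller's local background and with it the number of tags a peak needs. At the local backgrounds of the flanking summits, of regions 11 and 13, a KO peak would have needed 18 to 30 summit tags, against 6 to 8 at the genome background. With a local background like that of the flanks, the absence of a KO peak therefore places the KO libraries below about that level, and not at 0.

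A KO level for a stretch around the element was then worked out from the deposited values, without a peak at the element. Where it exceeds the genome background, the local background of a summit is the number of tags in the 10 kb centred on it, expressed per 200 bp, so 2 summits whose windows differ by a stretch that holds the element give the tags of that stretch, less those of an equal stretch at the far end. This was done after the data had been seen. The windows of regions 15 and 17 differ by 1835 to 1906 bp that hold the element and no other region. The excess over the 4 KO libraries was 48 (replicate 1_2), 52 (1_3), 26 (2) and 37 (3) tags. Over the 4 WT libraries it was 138 (replicate 1_2), 198 (1_3), 187 (3) and 248 (4) tags. The lowest WT library thus lay above the highest KO library. Divided by each library's genome background, the stretch held 27.3 ± 6.4 (SD, n = 4) in KO and 119 ± 39.3 (SD, n = 4) in WT, and the KO mean was 23% of the WT mean. Each KO excess was above the summit tags that would have given that library a peak at the flanks' local backgrounds, yet none was called. With such a background, part of the KO excess lies outside the summit. The 23% therefore describes the stretch and not the element's summit.

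Other pairs of windows, which overlap the first, gave like values. Regions 13 and 17 gave a KO mean of 21.3% of the WT mean, and regions 10 and 11 gave 23.2%, where WT replicate 1_2 had no peak at region 10 and 3 WT libraries remained. Without WT replicate 4, the highest library, the first pair gave 27.2%. The same calculation was made over 897 regions open in all 8 libraries, with at least 30 summit tags in every library and 30 excess tags in every WT library. It gave a median of 98.9% (quartiles 89.8% and 108%), against 99.4% by their summit tags. With levels so alike in KO and WT, these regions do not show how the calculation behaves where KO is low. The calculation could be made for 11 other WT-only regions with at least 30 excess tags in every WT library. These were at 29.3% to 88.2% with a median of 46.9%, and 0 of the 11 were below the element. These WT-only regions were chosen by the absence of a KO peak, and the element also by its strength in WT, so the percentages are given as descriptions. Per genome background, the 11 held 10.1 to 25.9 in KO and 22.8 to 54.1 in WT. The element's stretch held 27.3 in KO, above all 11, and 119 in WT.

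**Figure D2:**
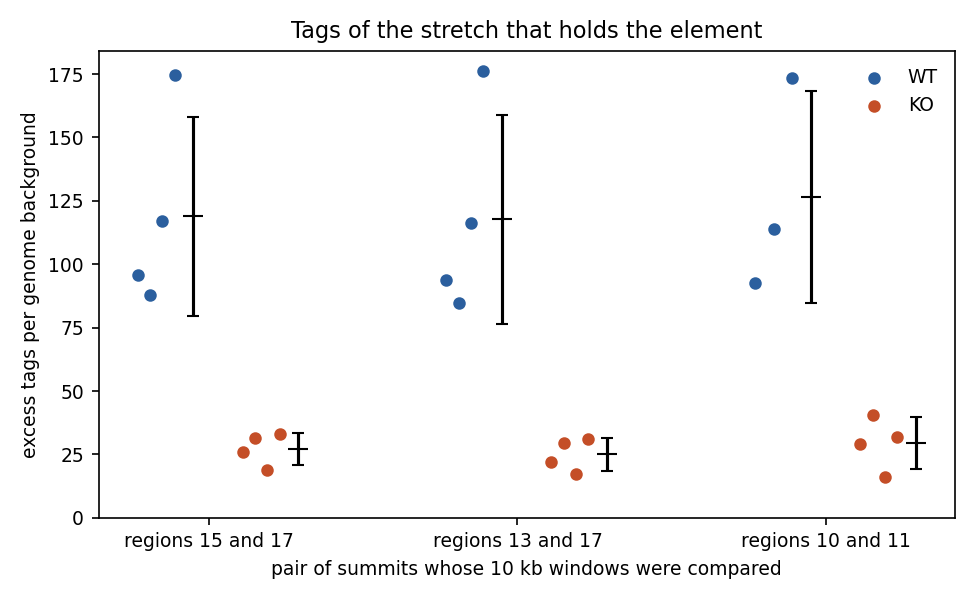
Excess tags per genome background (vertical axis) in the stretch that holds the element, for 3 pairs of windows, with a point per library and the mean and SD beside them. In each pair every KO library lies below every WT library, and the KO mean is 21.3% to 23.2% of the WT mean.

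The element stood alone among WT-only regions but not among open regions. The nearest other WT-only regions were 264.0 kb before it, at Ttll3, with 13 to 25 summit tags, and 1133.6 kb after it, in Atg7, with 12 to 16. The nearest KO-only regions were 14213.1 kb before and 1000.6 kb after. Of the 596 WT-only regions, 66 (11.1%) had another WT-only summit within 50 kb. The nearest summit open in all 8 libraries was 2.73 kb away, that of region 11, where the median over WT-only regions was 10.37 kb. There were 17 such summits within 50 kb of the element, against a median of 3 for WT-only regions, and it was among 8 of the 596 (1.34%) with at least as many.

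The WT-only regions most like the element in strength percentile over the 4 WT lists were in the gene bodies of Pmepa1 and Vwf, with root mean square differences of 8.0 and 8.8 percentile points. The Pmepa1 region had 84 to 113 summit tags and the Vwf region 106 to 137. The next 3 were intergenic, 2 of them nearest to Gm11682 and 1 to Gm14314, at 11.5, 18.6 and 13 points. Likeness was measured over 4 libraries and by strength alone.

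The promoter peak (region 6, summit 15 bp from a start site of Irak2) was among the strongest of the gene. It had 264, 241, 252 and 182 summit tags in the KO libraries, given here and below in the order of replicates 1_2, 1_3, 2 and 3. The WT libraries, in the order of replicates 1_2, 1_3, 3 and 4, had 238, 273, 270 and 280. The KO libraries lay within the WT range except replicate 3, the shallowest library, which was below it. After centring each library on its median, the log2 difference of KO minus WT was 0.03 (SE 0.10, 95% interval −0.17 to 0.22, adjusted p = 0.899, limma), and its sign changed to −0.01 when libraries were scaled by total tags and to −0.03 with quantile normalisation.

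Intron 2 held 9 regions, 4 of them open in all 8 libraries. In region 11, the neighbour before the element, the KO libraries had 206, 188, 180 and 149 summit tags and the WT libraries 197, 261, 214 and 250, in the same orders of replicates. The ranges overlapped, and the log2 difference was −0.14 (SE 0.10, interval −0.33 to 0.06, adjusted p = 0.391, limma). Without WT replicate 4, the highest of the 4 WT libraries after centring, it was 0.00 (adjusted p = 0.993, limma). In region 13, after the element, KO tags were 127, 90, 91 and 104 and WT tags 101, 135, 134 and 100. The difference was 0.03 (SE 0.11, interval −0.20 to 0.25, adjusted p = 0.918, limma). Regions 15 and 17 were at 0.02 and −0.05. None of the 4 passed the test, and 0 of the 4 had an unadjusted p under 0.05, where 26.2% of all regions tested did.

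**Figure D3:**
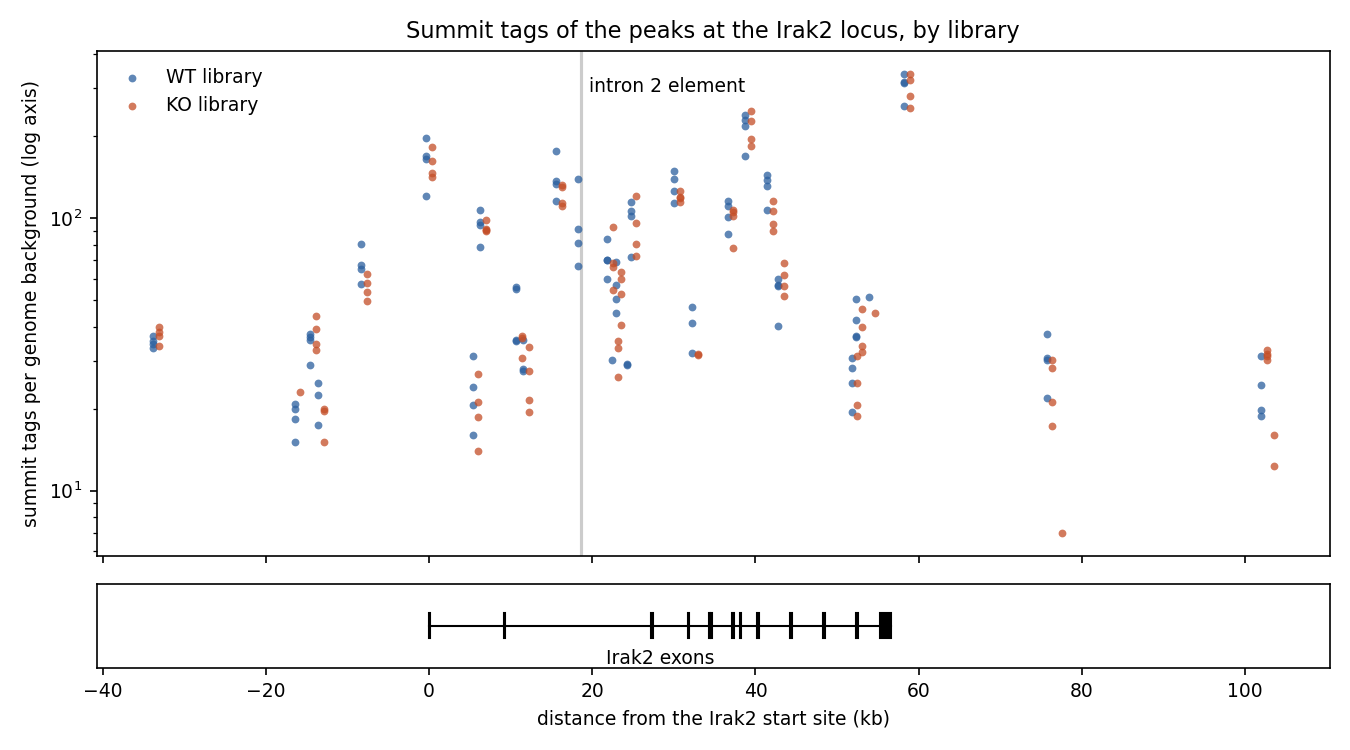
Summit tags over each library's genome background (log axis) against distance from the Irak2 start site in kb, with WT libraries in blue just left of KO libraries in red, and Irak2 exons as boxes below. The element, at the grey line, has blue points at 66.5 to 138.8 and no red points, between regions where the colours overlap.

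Of the 20 regions open in all libraries, 2 passed limma's test at an adjusted p under 0.05, where 12.8% of the 47499 regions tested did (5.81% higher and 7.03% lower in KO). The 20 log2 differences ran from −0.30 to 0.50 with a median of −0.01, against a median of 0.04 over all regions tested, and 10 were below 0 and 10 above. Scaling by total tags instead gave 2073 higher and 3895 lower regions in the whole table, against 2759 and 3337, and left 1 call at the locus. The balance turned to 3269 higher and 3182 lower without WT replicate 4, and to 3608 higher and 3296 lower in the 6 libraries fitted with a replicate block.

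Region 22, in intron 9, was lower in KO. The KO libraries had 177, 148, 146 and 130 summit tags, and the WT libraries 207, 242, 220 and 186. Every KO library was below every WT library, also after centring, as was the case for 7.91% of the regions tested. The log2 difference was −0.30 (SE 0.09, interval −0.48 to −0.11), 0.815 times the WT level, with an adjusted p of 0.0216 (limma). Its summit is also 989 bp from the start of Gm43963, a transcript that awaits experimental evidence. The call was lost without KO replicate 1_3 (adjusted p = 0.0759), KO replicate 3 (0.0671), WT replicate 1_2 (0.0523) or WT replicate 3 (0.0636).

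Region 30, the promoter of Sec13, a gene for a protein of COPII vesicle coats and the nuclear pore, was higher in KO. The KO libraries had 59, 54, 43 and 34 summit tags, and the WT libraries 45, 55, 30 and 28. The groups overlapped before and after centring. The log2 difference was 0.50 (SE 0.17, interval 0.16 to 0.85, adjusted p = 0.0444, limma). The call was lost in 9 of 15 other settings, among them total-tag scaling (adjusted p = 0.0708) and without KO replicate 1_2 (0.153) or WT replicate 3 (0.188).

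**Figure D4:**
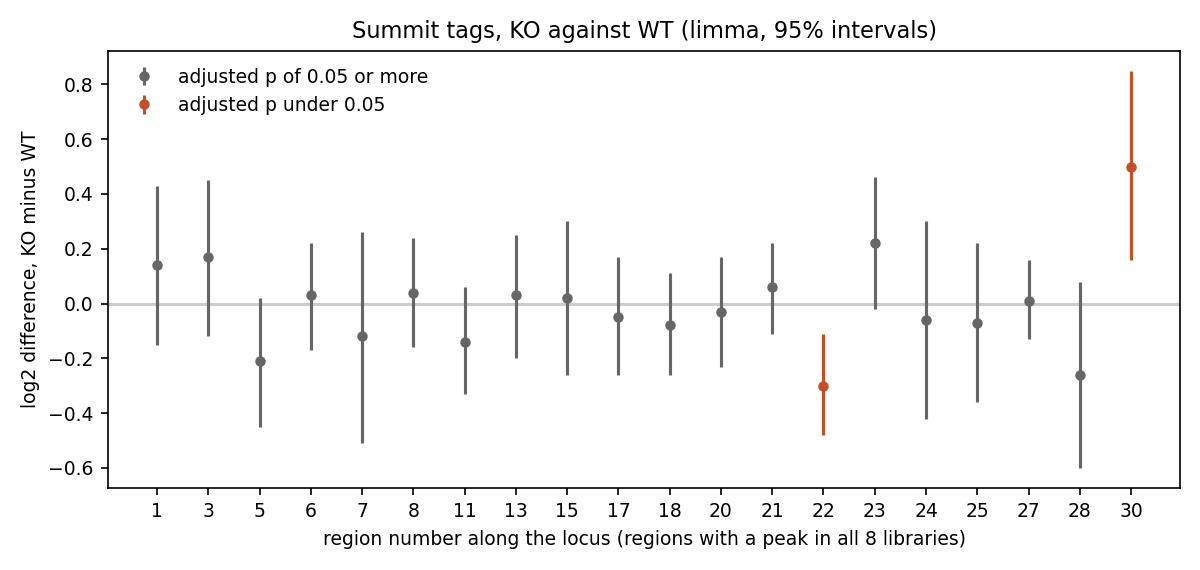
Log2 difference of summit tags, KO minus WT, for the 20 regions that every library shares, in order along the locus, as points with 95% intervals from limma. Regions 22 (−0.30) and 30 (0.50), in red, have an adjusted p under 0.05, and the other 18 intervals include 0.

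The strongest region in the gene body was region 21, in intron 8, with 343, 375, 270 and 279 summit tags in the KO libraries and 344, 383, 348 and 326 in the WT libraries. Its log2 difference was 0.06 (SE 0.08, interval −0.11 to 0.22, adjusted p = 0.707, limma). The strongest of the window was the promoter of Tatdn2 (region 27), with 380 to 473 tags in KO and 447 to 583 in WT and a log2 difference of 0.01 (SE 0.07). The promoters of Brk1, which encodes a subunit of the WAVE actin regulatory complex, and of Vhl, which encodes the substrate-binding subunit of the ligase that marks HIF for degradation, were at 0.14 and 0.17, without passing the test. In region 23, intron 9, every centred KO value was above every WT value (8.25% of the regions tested), yet the adjusted p was 0.232 (limma, log2 difference 0.22). The remaining tested regions ran from −0.26 (region 28) to 0.04 (region 8).

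The other 10 regions were found in some but not all libraries, and they were mostly weak. Region 2, 1.6 kb from a Vhl start site, had a peak in all 4 WT libraries at 26 to 34 summit tags and in KO replicate 1_3 at 38, the highest of the 5. Without that library it would count as a second WT-only region. Region 16, in intron 2, had a peak in WT replicates 1_2 (42 tags) and 1_3 (65 tags) and in no KO library. Regions 29 and 31 had peaks in KO libraries alone, with 13 tags in KO replicate 1_2 and with 17 and 18 in KO replicates 2 and 3. The remaining 6, regions 4, 9, 10, 14, 19 and 26, had peaks in both genotypes. Region 14, in intron 2, had 3 KO peaks of 43 to 66 tags and 1 WT peak of 68.

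Apart from the element, the KO libraries had 27, 28, 23 and 25 peaks at the locus and the WT libraries 27, 28, 26 and 23. The ranges overlapped almost entirely. The KO mean was 25.75 ± 2.22 (SD, n = 4) and the WT mean 26.0 ± 2.16 (SD, n = 4), a difference of −0.25 (exact permutation test over 70 labelings, two-sided, p = 1, the smallest possible being 0.0286).

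Tags were also compared over the 10 kb around each shared summit. Over the 17 windows that were centred on summits shared by all 8 libraries and did not reach the element, the ratio of KO to WT means per genome background was 0.869 to 1.11 with a median of 0.942, and the groups overlapped in all 17. The median over 37444 such windows in the genome was 0.986, and 8.13% of them had every KO library below every WT library. The 3 windows that held the element had ratios of 0.668 (region 11), 0.786 (region 13) and 0.788 (region 15), and the groups did not overlap at region 11. Without WT replicate 4 they were 0.73, 0.83 and 0.83, against 0.886 to 1.08 for the other 17. These 3 include the element's own tags, which chose the locus, and are given as a description.

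**Figure D5:**
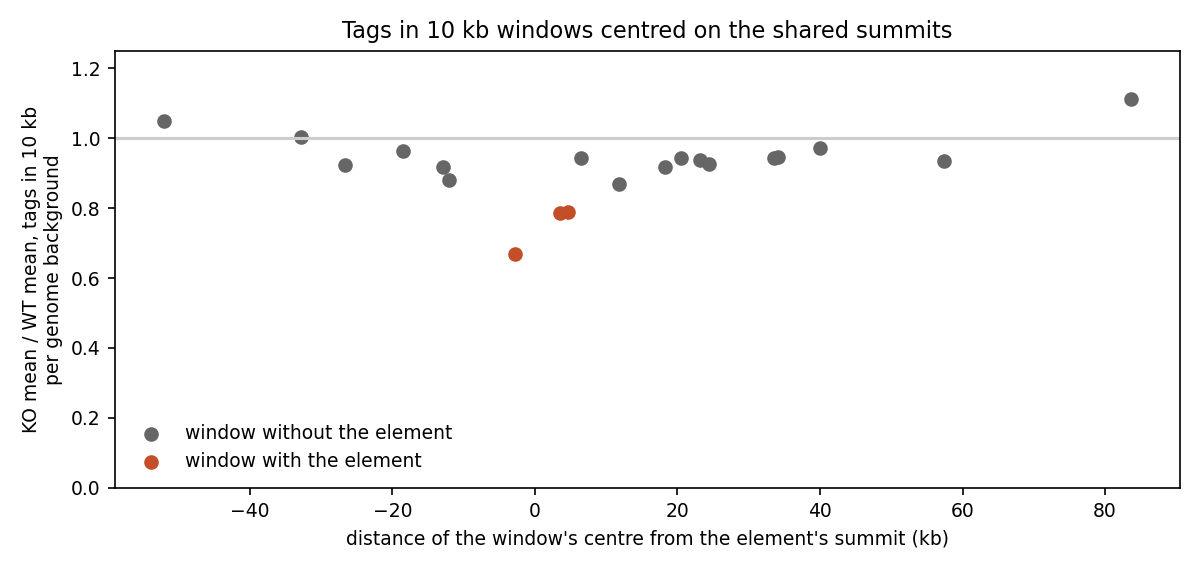
Ratio of the KO to the WT mean of tags in 10 kb per genome background (vertical axis), for windows centred on the 20 shared summits, against their distance from the element's summit in kb. The 3 windows that hold the element are at 0.668 to 0.788 and the other 17 at 0.869 to 1.11.

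The rest of the pathway was examined at 29 genes with 50 kb on each side, which held 293 consensus regions, 0 of them WT-only and 0 KO-only. Of 205 regions tested, 16 (7.80%) passed, 13 higher and 3 lower in KO, against 12.8% of all regions. With total-tag scaling 15 passed, 9 higher and 6 lower. The median log2 difference was 0.07. Promoter peaks were present in all 8 libraries at 25 of the 29 genes and in none at Il1rl1, Il18r1 and Il1b.

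Among the kinases, Irak1, Irak3 and Irak4 had promoter differences of 0.11 (SE 0.11), 0.00 (SE 0.11) and 0.09 (SE 0.08), with adjusted p of 0.563, 0.990 and 0.493 (limma). Neither Irak1, with 6 regions tested, nor Irak3, with 16, had a region that passed. Irak4 had 1 of 4, 46.2 kb from its start site, higher in KO by 0.33 (SE 0.09, adjusted p = 0.0108, limma). The promoter of Myd88, the adaptor that joins the receptors to the kinases, differed by −0.01 (SE 0.11, adjusted p = 0.957, limma), and none of its 8 regions passed.

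Of 37 regions tested at the receptors, 2 were higher and 2 lower in KO (10.8%), against 12.8% of all regions tested. Among the receptors, the signalling receptor Il1r1 had 2 regions higher in KO, both in its body. In the larger of these differences, 39.7 kb from a start site, the KO libraries had 43, 34, 42 and 43 summit tags and the WT libraries 24, 26, 22 and 11. All KO libraries were above all WT libraries, where 8.25% of the regions tested had every centred KO value above every WT value. The log2 difference was 1.22 (SE 0.20, adjusted p = 1.09e-05, limma). Il1r2, a decoy receptor, had 1 region lower in KO, with 24, 32, 32 and 31 tags in the KO libraries and 60, 63, 42 and 43 in the WT libraries (−0.57, SE 0.17, adjusted p = 0.0236, limma). A region in Il1rl1, the receptor of interleukin-33, that also lies within 50 kb of Il18r1, was lower by 0.75 on the log2 scale (SE 0.20, adjusted p = 0.00723, limma).

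Of 45 regions tested at the ligands, 2 were higher and 1 lower in KO (6.67%). Of the ligands, Il1b had 1 region lower in KO, 10.2 kb from its start site (−0.44, SE 0.12, adjusted p = 0.00896, limma), and Il18 had 2 higher, both in the flanks (0.32 and 0.57). Downstream of the kinases, regions higher in KO were found at Traf6 (0.28), Peli1 (0.85), Peli2 (0.37), Tab1 (0.98 and 0.38), Tab3 (0.28), Ube2n (0.79) and Ikbkg (0.43). They were 8 of the 79 regions tested at the downstream genes (10.1%), and none was lower. Over all regions tested, 5.81% were higher and 7.03% lower. Total-tag scaling gave 6 higher and 0 lower. Those at Tab1 (0.38) and Tab3 lay at the start site. Peli1 encodes a ubiquitin ligase that IRAKs phosphorylate, and its region, 8.4 kb from a start site, had an adjusted p of 3.63e-05 (limma). Regions in a flank may belong to other genes.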

How the data were processed

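ATAC-seq peak lists of 4 KO and 4 WT libraries were analysed, grouped by the sample titles and genotype labels. According to the study's methods and processing notes, the authors used cutadapt for trimming, Bowtie2 for alignment to mm10 and, after duplicates had been removed, called peaks per library with MACS3 at a q-value of 0.05, with reads shifted and extended to 200 bp around the cut. The deposited lists give a fold enrichment (the ratio of summit pileup to local background, 1 added to each), −log10 p-values and −log10 q-values, a display score deposited by the authors and not used, and positions. Read counts are not among them, so the authors' edgeR test was not fitted.

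Summit tags and background were worked back from the deposited fold and −log10 p by inverting MACS3's Poisson test. Whole tags gave back 100% of p-values within a relative error of 1e-05, and where the local background exceeded the genome background, 50 times it was a whole number within 0.06 for 100% of peaks. Peaks were merged at 1 bp, and gene models were GENCODE M21, basic. Log2(tags + 0.5), centred on library medians, was compared between genotypes over the 47499 regions found in every library with limma 3.58.1 (R 4.3.3, trended prior variance, Benjamini-Hochberg adjustment over all of them). This understates differences at weak regions and leaves out regions without a peak in every list, so the element itself was outside the test. Intervals cover the spread between libraries only. The fit was checked on simulated tags, with fewer changed regions than were called in the data and the same dispersion in every library. The simulated differences were larger than those called at the locus, so that check does not cover differences of that size. Peak numbers were compared by exact permutation. Python 3.11.15 and samtools 1.23.1 were used for the rest. Replicates 1_2 and 1_3 may come from one animal, which is not stated in the sources read here. They were counted as separate samples because the labels list them so, which no value here tests, and counting them as 1 was an alternative. KO replicates 1_2 and 1_3 were the closest pair within a genotype: over 6453 windows of 10 kb that do not overlap, chi-square per degree of freedom was 1.21 for them and up to 5.49 over the 12 pairs, and their summit tags alone agreed within sampling noise (0.98). KO replicates 2 and 3 were close to this, at 1.41 and, by summit tags, 1.01. WT replicates 1_2 and 1_3 were at 2.35 and 1.34, less close than WT replicates 1_2 and 3 at 1.78 and 1.12. The members, lists, motifs and tests were chosen with earlier results of these data known. Named were all genes and regions of the window, the 5 WT-only regions most like the element, and pathway genes with a called or genotype-only region, with Irak1, Irak3, Irak4 and Myd88 in any case. Alternatives were other scalings, pseudocounts, filters, thresholds, flanks and merging, the replicate block, and leaving out each library. The 10 kb calculation, its other window pairs and libraries left out from it, the values without a WT library for the element's rank and the 10 kb ratios, and the 6-library fit without a block were added after the data had been seen.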

Additional observations from a re-analysis of the deposited data

Results flagged for a closer look

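Among 45 groups of 4 values examined, 4 held a library far from the other 3, where chance gives about 1 in 20. At region 11, beside the element, WT replicate 4 was highest with 8.14 centred log2 tags against 7.58 to 7.62 in the other WT libraries. The same library was highest at the element. At region 1, the Brk1 promoter, KO replicate 3 was lowest with 5.69 against 5.96 to 5.98. At region 24, in intron 11, KO replicate 2 was highest with 5.62 against 5.08 to 5.14, and WT replicate 1_2 was lowest with 4.78 against 5.40 to 5.51. None of these 3 regions passed the test of KO against WT.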

How the results depend on the processing

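The single WT-only and 0 KO-only regions of the locus did not change with a −log10 q of at least 5, lists trimmed to the length of the shortest, flanks of 20 or 100 kb, merging at 100 bp, or replicates 1_2 and 1_3 as 1 sample. Leaving out 1 library gave 1 to 2 WT-only regions, 2 without KO replicate 1_3. The regions called at the locus, 2 of 20, fell to 1 with total-tag scaling and to 1 with replicates 1_2 and 1_3 as 1 sample, and were 0 to 2 without 1 library. With the replicate block over replicates 1_2, 1_3 and 3 there was 1, and without the block in the same 6 libraries 0 (region 22, adjusted p = 0.0570). Same-named libraries had correlations of deviations of 0.0555, 0.1162 and 0.0368, so the names were not taken to pair the samples. The block gave 6904 calls over all regions (3608 higher and 3296 lower in KO) and 21 in the pathway. Without it the same 6 libraries gave 5272 and 15. The paired difference in peaks was −0.33 (exact p = 1, the smallest these pairs allow). The promoter's log2 difference of 0.03 turned to −0.01 with total-tag scaling, −0.03 with quantile normalisation, −0.04 with replicates 1_2 and 1_3 as 1 sample, and ran from −0.06 to 0.15 without 1 library. The difference in peak numbers ran from −1.25 to 0.67 without 1 library. Depth and the local background limit what is seen. With a local background like that of region 13, to which the element's was closer in WT, a KO level below 23 to 30 summit tags would give no peak. With one like that of region 11, the limit would be 18 to 23.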
